A study of Mus musculus with 12 samples.

Results

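Histone modifiers and chromatin remodelers were examined in B cells of the Peyer's patches (PP), the lymphoid follicles of the small intestine, after experimental stroke. The genes were chosen by name, as rows whose symbol starts with Kmt, Setd, Kdm, Hdac, Sirt, Chd, Arid or Brd and a digit, or with Smarc and a letter from a to e. Of 36175 genes in the table, 98 names matched, 4 of these were left out by the rule and 94 remained in 9 families. The families held 18 Kdm, 13 Smarc, 11 Hdac, 10 Arid, 10 Chd, 9 Brd, 8 Kmt, 8 Setd and 7 Sirt genes. All 94 were found in GENCODE M21 on GRCm38. The name is the sole criterion, so Brd8dc and Brd3os belong through their symbol only, and several Setd and Sirt enzymes act mainly on proteins other than histones.

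RNA-seq was available from 6 sham controls and 6 stroke mice (the label calls the stroke group Brain injury), with 1 sample for each mouse. All were male C57BL/6JHsd mice of 10 to 12 weeks. Stroke mice had the middle cerebral artery occluded with a filament for 1 h, and sham controls went through the same operation with a filament that was withdrawn at once, so anaesthesia and neck surgery were common to both groups. PP were taken 18 h after surgery, and B cells were enriched by magnetic depletion of other cells and then with CD45 beads. The comparison asks which chromatin genes differ in PP B cells at this time.

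DNA in the nucleus is wound around histones, and chemical groups on the histone tails mark genes as active or silent. Methyltransferases (Kmt and many Setd proteins) write methyl marks, demethylases (Kdm) remove them, and histone deacetylases (Hdac) and sirtuins (Sirt) remove acetyl groups. Remodelers of the SWI/SNF (most Smarc proteins and the Arid1 and Arid2 proteins) and CHD classes spend ATP to move or evict nucleosomes. Bromodomain proteins (Brd) bind acetylated histones. In B cells these enzymes take part in the germinal centre reaction and in the switch to plasma cells, and Kmt2d and Arid1a are genes often mutated in lymphomas of germinal centre origin.

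The unit of the deposited table is called normalized TPM. TPM is an abundance per transcript length, so levels can be compared between genes within a mouse if the label holds. The column totals ran from 559570 to 1404340 in place of a common sum, and the number of reads behind each value is unknown. Sham controls 1 and 2 had the highest totals and the highest summed level of 10 intestinal epithelial markers, 1781 and 1661 normalized TPM, against 34.7 to 807 in the other 10 mice. By group this sum was 42.2 to 1781 in sham controls and 34.7 to 807 in stroke mice. All 6 tested epithelial markers had negative log2 fold changes, from -1.84 (Fabp2) to -0.84 (Lgals4), and none was called. All 10 B cell markers were at 1 or more in every mouse, and their sum was 2790 to 3550 in sham controls and 1941 to 3166 in stroke mice, lowest in stroke mouse 5. In limma, 1 of these 10 markers was lower in stroke mice at an unadjusted p under 0.05, Cr2 (complement receptor 2, log2 fold change -0.83), which is named after its values were seen and was 212 to 294 in sham controls and 47.1 (stroke mouse 5) to 213 in stroke mice. T cell markers summed to 82.7 to 149 in sham controls and 68.6 to 178 in stroke mice. Paneth cell markers summed to 30.7 to 199 and 56.5 to 350, plasma cell markers to 325 to 1509 and 382 to 1113, macrophage and dendritic cell markers to 55.8 to 374 and 65.5 to 213, and germinal centre markers to 234 to 516 and 237 to 506. Among the markers of these other cell types, 1 was called in limma, the dendritic cell gene Flt3 (log2 fold change 0.50), also named after its values were seen. Flt3 was 7.22 to 12.8 in sham controls and 11.9 to 16.5 in stroke mice. Its part in the differences of the chromatin genes was not tested. The neutrophil genes S100a8, Elane and Ly6g, the endothelial genes Tek, Emcn and Kdr and the stromal genes Col1a1, Pdgfrb and Lum were under 1 in every mouse, 3 of the 8 markers in each list. The 8 neutrophil markers summed to 4.71 to 7.34 in sham controls and 4.74 to 9.62 in stroke mice, the stromal markers to 2.55 to 7.53 and 3.24 to 10.5, and the endothelial markers to 84.5 to 110.4 and 92.6 to 115, of which Pecam1 was 77.1 to 105 over the 12 mice. Sample quality weights were lowest in sham control 6 (0.274) and stroke mouse 5 (0.305).

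Of the 94 genes, 87 reached 1 normalized TPM or more in each of the 12 mice and were tested. The tested members lay well inside the expressed range, with a median level of 53.6 normalized TPM against 18.4 over all 12590 genes tested, and 76 of the 87 were above the latter value. For most members the variation between mice was also below the median of all genes tested, a comparison not matched for level. The median coefficient of variation over the 12 mice was 15.5% for members and 22.6% for all genes tested, and 69 of 87 members were below the latter. Both medians were computed over genes that passed the filter.

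**Figure D1:**
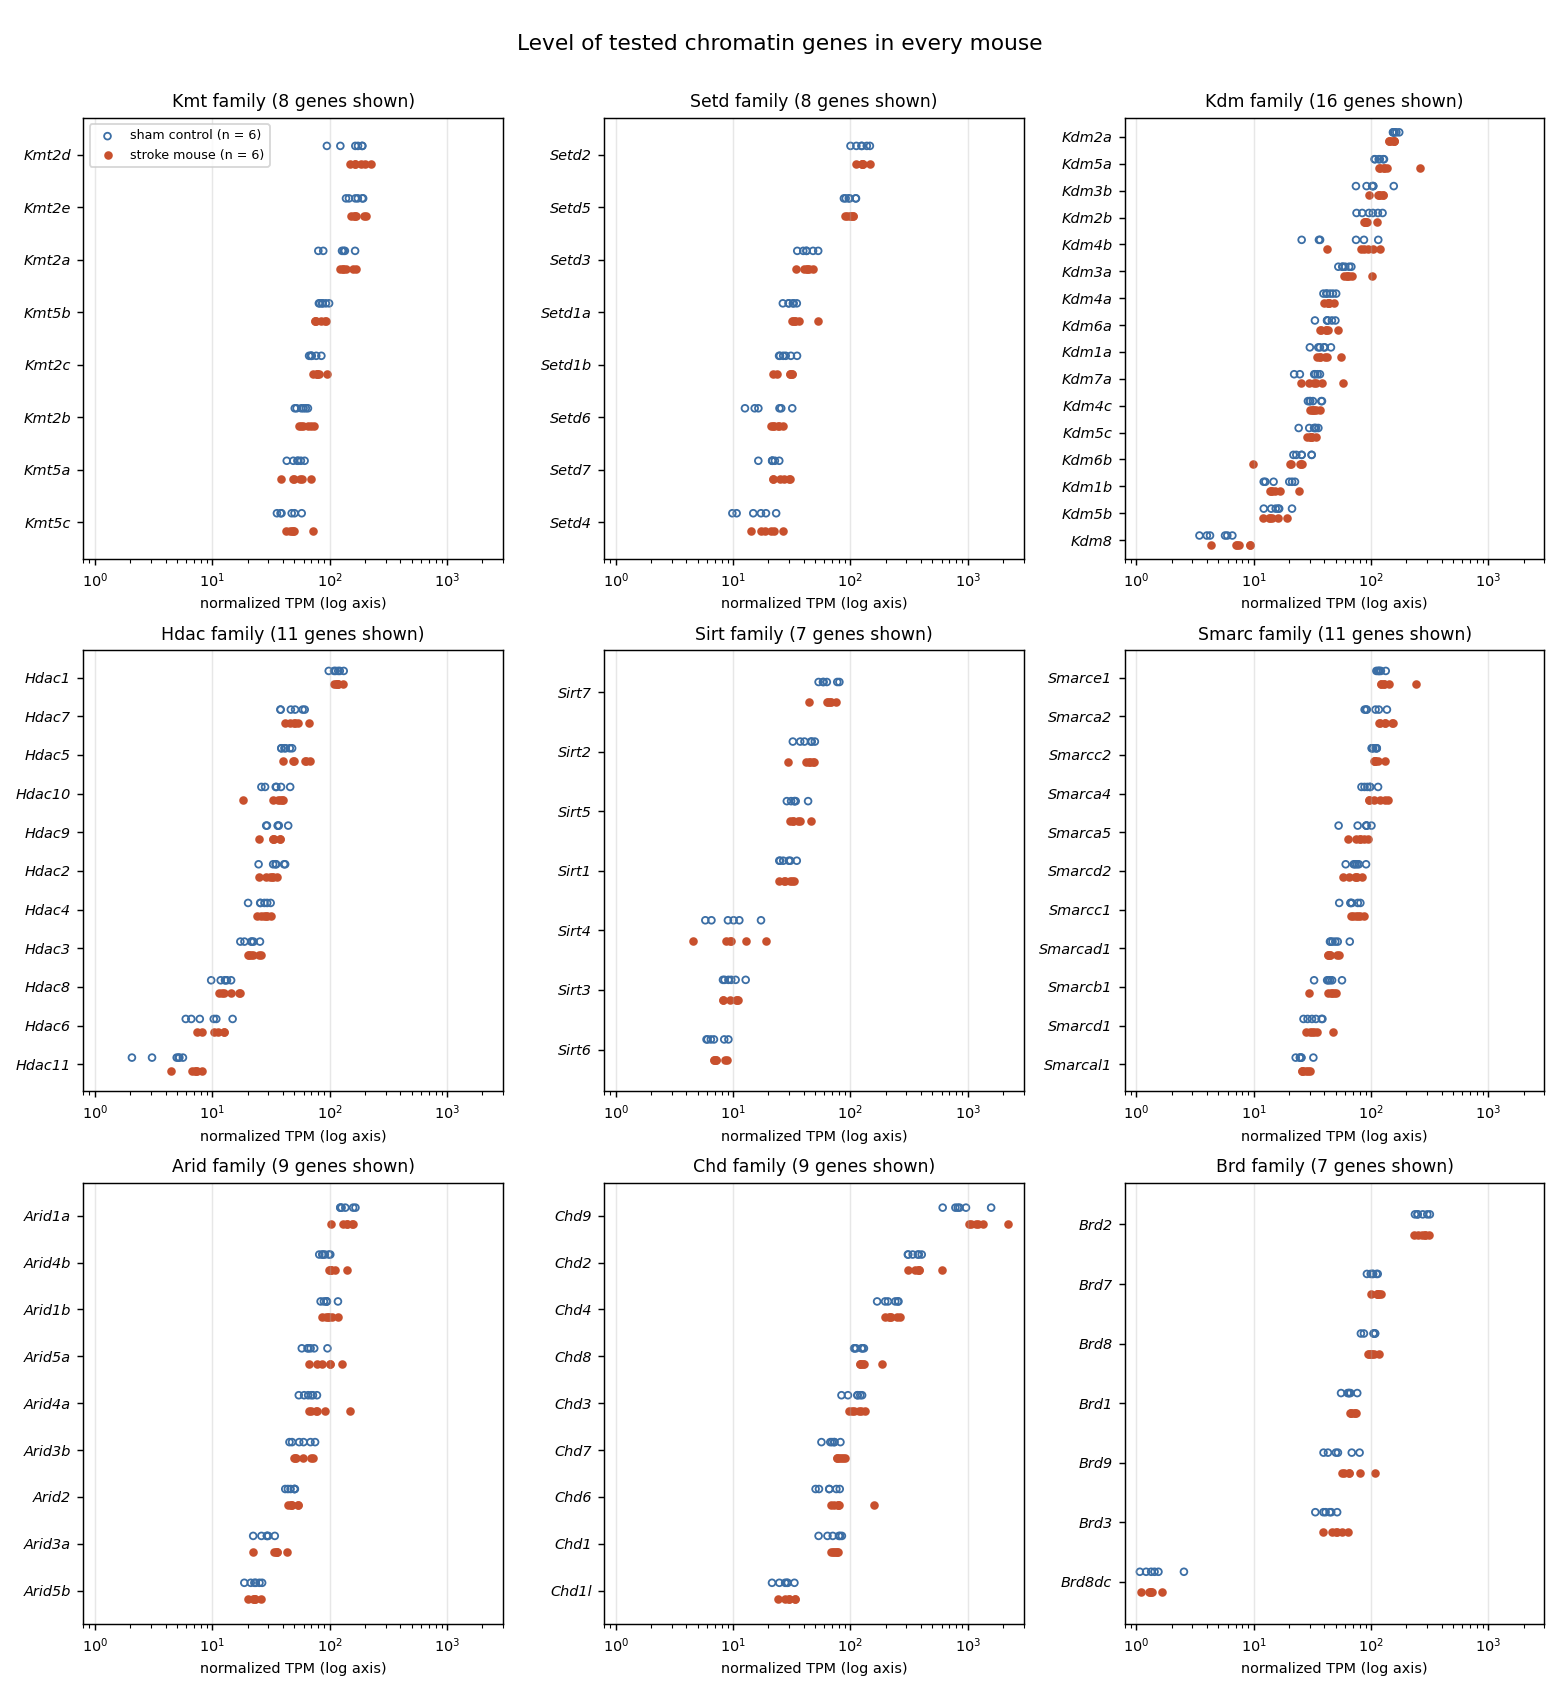
Level of 86 of the 87 tested genes in every mouse, by family, with normalized TPM on a log axis, open circles for the 6 sham controls and filled circles for the 6 stroke mice. Most genes lie between 10 and 200 normalized TPM, Chd9 is highest with a median of 1045 over the 12 mice, and sham and stroke values overlap in every gene shown.

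The 7 members that were not tested were low. Smarca1, an ISWI-type ATPase, was 0 to 0.037 in sham controls and 0 to 0.234 in stroke mice, and the Kdm4d-related gene Kdm4dl was 0 to 0.067 and 0 to 0.231. Arid3c was 0 to 0.168 and 0 to 0.492, Kdm4d was 0.255 to 0.790 and 0.385 to 1.15, and Brd3os was 0.125 to 0.454 and 0.231 to 0.536. Chd5, a CHD gene best known from neurons, was 0.209 to 1.10 and 0.365 to 1.32. Smarcd3, the SWI/SNF subunit of heart and muscle, was 0.798 to 4.34 and 1.003 to 4.88 and missed the filter through sham values under 1. These low values were not compared further.

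Across the 87 tested members the differences between stroke mice and sham controls were small. In limma on log2(value + 0.5), 8 members (9.20%) were higher in stroke mice at an unadjusted p under 0.05, where 4.42% of all genes tested were called higher. None was lower, where 1.69% of all genes were called lower. With Benjamini-Hochberg adjustment over all genes limma called 0 members and 0% of all genes, and the smallest adjusted p was 0.748 among members and 0.468 among all genes. In no member was every stroke mouse above every sham control, a pattern seen in 0.349% of all genes, or every stroke mouse below every sham control, seen in 0.0874%. Of the 87 members, 83 had a log2 fold change below 0.5 in size and 84 had a 95% interval that stayed within 1 on the log2 scale in both directions. In bulk samples, fewer cells of a type and less RNA per cell cannot be told apart, and this holds for every difference given here.

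**Figure D2:**
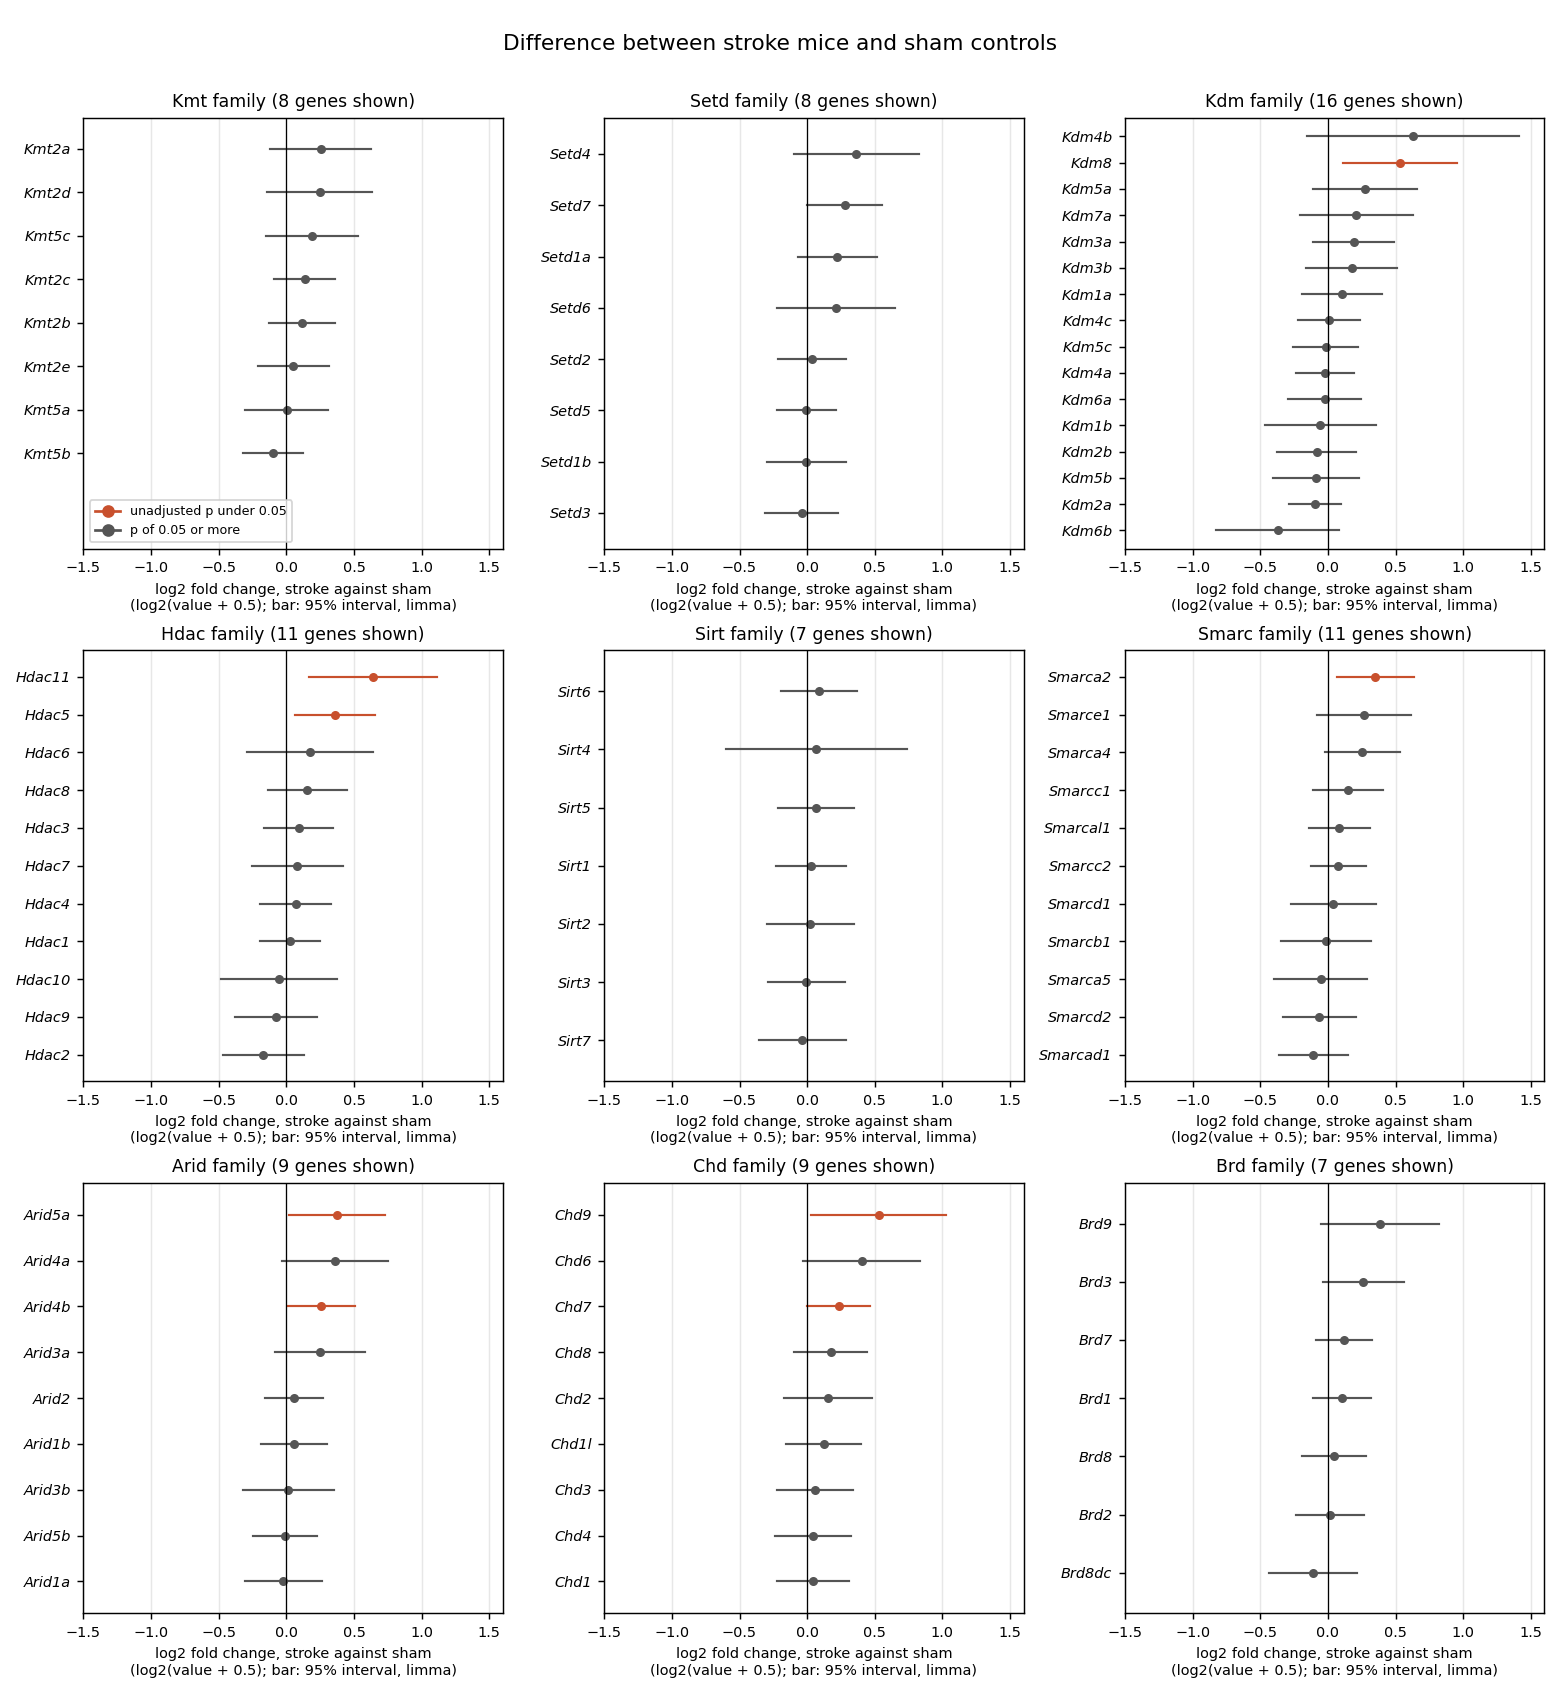
Log2 fold change of stroke mice against sham controls (n = 6 each) for 86 of the 87 tested genes by family, as points with 95% intervals from limma; orange marks an unadjusted p under 0.05. The 8 orange genes all lie above 0, and the intervals of the other genes shown include 0.

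The count moved with the processing and with single mice. Under 3 other scalings, 3 to 5 members were called higher (3.45 to 5.75%, where 2.76 to 3.23% of all genes were). Without sham control 6 it was 13 higher (14.9%, with 7.44% of all genes) and 1 lower (1.15%, with 9.20% of all genes). Without sham control 1, 2, 4 or 5 it was 5 higher (5.75%, with 3.34 to 4.36% of all genes). With sample quality weights it was 6 higher, 6.90% of members and 6.88% of all genes.

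The fold changes leaned to the positive side. Of 87 members 63 (72.4%) had a positive log2 fold change, against 51.4% of all genes tested, and the median was 0.078 against 0.0069. With any 1 mouse left out, 58 to 66 of 87 members were positive, with medians of 0.063 to 0.095 against -0.021 to 0.027 for all genes. Without stroke mouse 5 it was 66 of 87 (0.084 against 0.017), and with quantile normalization also 66 (0.078 against 0.0022). The number was lower with median of ratios scaling, 59 (0.055 against -0.015), and with quality weights, 56 (0.064 against -0.010). The mice differed in their share of this lean. As the median deviation of the 87 members from each gene's own median over the 12 mice, sham control 1 was at -0.11 and sham control 2 at -0.059, while stroke mouse 5 was at 0.12 and stroke mouse 6 at 0.088. The other 8 mice were between -0.044 and 0.025. The mitochondrial share of the total was lowest in sham controls 1 and 2 (2.27 and 2.13%) and highest in stroke mouse 5 (7.49%). In stroke mouse 6 it was 3.94%, and the part of this share in the lean was not tested. Stroke mouse 6 also stood apart in the number of genes above 0, at 30060 against 20626 to 23947 in the other 11 mice, and the part of this in its values was not tested. Sham controls 1 and 2 are also the mice with the highest epithelial sums. Stroke mouse 1 had the next highest epithelial sum, 807, at a deviation of 0.012. Sham controls 1 and 2 also had the highest plasma cell sums (1509 and 1347) and macrophage and dendritic cell sums (374 and 253). Their column totals were the highest too, and these traits of the 2 mice cannot be told apart here. Without these 2 mice, 62 of 87 members were positive, but the members' median of 0.058 was then close to the median of all genes, 0.050, and 3 members were called higher (3.45%, with 3.56% of all genes). With the epithelial marker level as a covariate, an alternative added after seeing the data, the medians were 0.066 and 0.055 and 4 members were called higher, a share of 4.60% near the 3.95% of all genes.

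**Figure D3:**
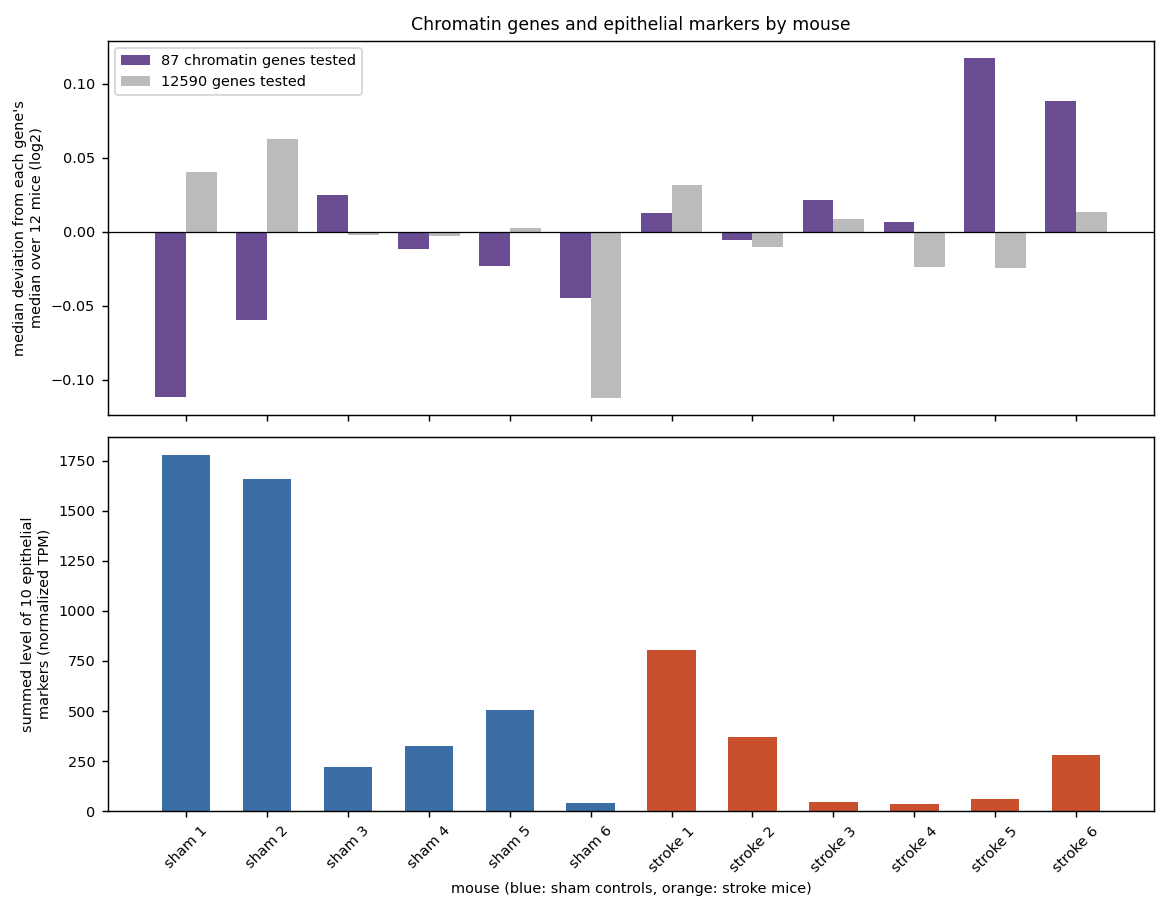
Upper panel, median deviation (log2) from each gene's median over the 12 mice, for the 87 tested chromatin genes and for all 12590 tested genes; lower panel, summed level of 10 epithelial markers in normalized TPM, for each mouse. Sham controls 1 and 2 combine the lowest chromatin gene deviations (-0.11 and -0.059) with the highest epithelial sums (1781 and 1661), and stroke mouse 5 has the highest deviation (0.12).

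Single mice set many of the extremes. Stroke mouse 5 was the highest of 12 for 27 members and the lowest for 13, sham control 6 was the lowest for 22 and sham control 1 for 20. Stroke mice 2 and 4 were neither the highest nor the lowest for any tested member.

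The 8 genes called higher were Hdac11, Kdm8, Hdac5, Smarca2, Chd9, Arid5a, Arid4b and Chd7. Hdac11, Hdac5, Smarca2 and Kdm8 were called in each of the 12 fits that left out 1 mouse. For these 4 genes the sequence just upstream of the gene start is given first, from RefSeq on GRCm38.p6, which held a promoter window for 71 of the 94 members. Because that is under 80% of the members, no comparison of promoter composition was made. Of the 250 bases before the RefSeq start, only the bases outside annotated exons are printed, which shortens Hdac11 and Smarca2. Each is written 5′ to 3′ on the strand of the gene, with capitals for motif matches on either strand. The first motif is the GC box, spelled GGGCGG. The second is the CCAAT box, spelled as its name. The last is the core of sites for ETS transcription factors, spelled CCGGAA. A match to the opposite strand appears as the reverse complement of these letters.
Hdac11, chr6:91156565-91156664, plus strand: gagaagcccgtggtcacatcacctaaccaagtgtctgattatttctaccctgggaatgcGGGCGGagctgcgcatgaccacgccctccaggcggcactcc
Kdm8, chr7:125444370-125444619, plus strand: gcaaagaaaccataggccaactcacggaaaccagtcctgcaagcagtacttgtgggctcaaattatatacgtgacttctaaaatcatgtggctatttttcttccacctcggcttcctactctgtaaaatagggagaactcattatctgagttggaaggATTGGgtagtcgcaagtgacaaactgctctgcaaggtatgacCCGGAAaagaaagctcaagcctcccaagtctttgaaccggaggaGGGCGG
Hdac5, chr11:102230173-102230422, minus strand: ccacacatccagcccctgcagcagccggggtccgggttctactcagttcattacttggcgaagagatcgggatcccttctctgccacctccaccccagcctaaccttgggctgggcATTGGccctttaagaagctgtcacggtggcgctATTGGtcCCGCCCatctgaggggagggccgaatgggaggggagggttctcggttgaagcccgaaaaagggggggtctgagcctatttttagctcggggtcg
Smarca2, chr19:26604910-26605049, plus strand: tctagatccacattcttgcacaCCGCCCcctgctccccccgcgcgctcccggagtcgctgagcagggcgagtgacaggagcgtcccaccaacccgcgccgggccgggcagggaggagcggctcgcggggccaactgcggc

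Each of the 4 sequences held 1 GC box. Kdm8 held 1 CCAAT box and 1 ETS core as well, and Hdac5 held 2 CCAAT boxes. Among all 32851 windows of 250 upstream bases in the RefSeq table, 32.7% held a GC box, 33.8% a CCAAT box and 12.0% an ETS core. Among the 11600 windows that belong to genes tested here the shares were 55.5%, 35.9% and 22.4%, so a GC box was present in most windows of expressed genes, and the shorter Hdac11 and Smarca2 stretches had less room for them. A TATA box (letters TATAAA, in 12.4% of all windows), an E-box (letters CACGTG, in 6.02%) and a full cAMP response element (letters TGACGTCA, in 1.55%) were searched on both strands and their letters were not in the 4 printed sequences.

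The histone deacetylase genes called were Hdac11 and Hdac5. Hdac11 (chr6:91156665-91174692), the sole class IV enzyme, had the lowest level of the tested Hdac genes. It was 2.07, 5.07 and 5.63 normalized TPM (lowest, median and highest) in sham controls and 4.46, 7.18 and 8.14 in stroke mice. The means were 4.36 ± 1.44 and 6.85 ± 1.25 (SD, n = 6 each), and the log2 fold change was 0.64 ± 0.22 (SE). The unadjusted limma p was 0.012, an exact permutation test over every split of the 12 mice into 6 and 6 gave p = 0.011, and the adjusted p was 0.748. Stroke mouse 2 fell among the sham controls and the other 5 stroke mice were above all of them, while sham controls 1 and 6 were lowest. Hdac11 had a p under 0.05 in all 25 alternatives that tested it, at log2 fold changes of 0.43 to 0.75, and without sham controls 1 and 2 it was 0.50 and still called. Its exons overlap those of Gm14573 and Gm44002 on the opposite strand, and whether the libraries keep strand is not given in the sources used here.

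Hdac5 (chr11:102194432-102230166), a class IIa deacetylase that shuttles between nucleus and cytoplasm in response to signals, was 38.8, 41.7 and 48.0 in sham controls and 40.2, 55.7 and 68.6 in stroke mice. The log2 fold change was 0.36 ± 0.14 (SE), with p = 0.020 in limma, p = 0.022 in the exact permutation test and adjusted p = 0.769. The sham controls lay close together and 5 of 6 stroke mice were above the highest of them, with stroke mouse 2 again inside the sham range. Without sham controls 1 and 2, Hdac5 was still called, at 0.38. It was not called with sample quality weights (0.24), nor without both sham control 6 and stroke mouse 5.

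The other class IIa genes were not called. Hdac4 was 20.2, 26.8 and 31.5 in sham controls and 23.9, 28.3 and 31.5 in stroke mice (log2 fold change 0.068, 95% interval -0.19 to 0.33). Hdac7, a class IIa gene prominent in lymphocytes, had a log2 fold change of 0.082 (-0.25 to 0.42), and Hdac9, known from regulatory T cells and muscle, of -0.075 (-0.38 to 0.23). The ratio of Hdac7 to Hdac5 was above 1 in 7 of 12 mice, at 0.836 to 1.58 in sham controls and 0.613 to 1.26 in stroke mice.

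Class I deacetylases, the nuclear enzymes of the NuRD, SIN3 and NCoR corepressor complexes, were led by Hdac1. Hdac1 was 98.4, 116 and 132 in sham controls and 110, 116 and 131 in stroke mice, and the log2 fold change was 0.026 (-0.19 to 0.25). Its close paralog Hdac2 was 24.8, 34.9 and 41.8 and 24.9, 31.7 and 35.4, with a log2 fold change of -0.17 (-0.47 to 0.13). Hdac1 exceeded Hdac2 in all 12 mice, by 2.83 to 3.99 times in sham controls and 3.18 to 4.70 times in stroke mice, ranges that overlap. Hdac3, the catalytic subunit of NCoR complexes, was 17.4 to 25.5 and 20.03 to 26.3 (0.090, -0.17 to 0.35). Of the 11 Hdac genes 8 had a positive log2 fold change, with a family median of 0.082.

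Sirtuins, the NAD-dependent deacylases, had the narrowest range of log2 fold changes of the 9 families. The 7 values ran from -0.035 to 0.088, and none was called. Sirt7, a nucleolar enzyme, was highest at 53.7, 61.2 and 80.7 in sham controls and 44.2, 66.0 and 75.5 in stroke mice. Sirt6, a nuclear enzyme with roles in DNA repair and glycolytic gene control, was lowest at 5.95, 6.68 and 9.14 and 6.91, 7.13 and 8.83. Sirt1, the best studied nuclear sirtuin, was 24.8 to 35.0 and 24.8 to 33.1, and the mainly cytosolic Sirt2 was 32.4 to 49.9 and 29.7 to 49.2.

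The mitochondrial sirtuins differed in level. Sirt5 was 28.8 to 43.7 in sham controls and 30.4 to 45.9 in stroke mice, above Sirt3 at 8.22 to 12.8 and 8.23 to 11.1 and Sirt4 at 5.81 to 17.3 and 4.56 to 19.2. The ranges of Sirt3 and Sirt4 overlap, so their order is not set. Sirt4 also had the widest interval of the family, a log2 fold change of 0.068 (-0.60 to 0.74).

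Among lysine demethylases, Kdm8 was the sole gene called. Kdm8 (chr7:125444676-125462269), a JmjC-domain protein also known as an amino acid hydroxylase, was the lowest tested Kdm gene at 3.45, 4.97 and 6.58 in sham controls and 4.32, 7.35 and 9.30 in stroke mice. The log2 fold change was 0.53 ± 0.20 (SE), with p = 0.017 in limma, p = 0.030 in the exact permutation test and adjusted p = 0.748. In 5 of 6 stroke mice it was above every sham control, and stroke mouse 4 was inside the sham range. Without sham controls 1 and 2, which had low Kdm8, the log2 fold change was 0.36 and the gene was not called, and the call was also lost with quality weights (0.32) and with equal totals, there at a larger log2 fold change (0.64).

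The 16 tested Kdm genes showed no common direction, with 8 log2 fold changes above 0, 8 below 0 and a median of -0.0054. Kdm2a, a CXXC-domain demethylase of H3K36 that binds CpG islands, was highest at 154, 158 and 174 in sham controls and 141, 152 and 157 in stroke mice, and had a log2 fold change of -0.093 (-0.28 to 0.099). Its paralog Kdm2b, the link to a polycomb complex, was lower than Kdm2a in all 12 mice, with a Kdm2a to Kdm2b ratio of 1.28 to 2.06.

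Kdm4b had the largest positive change that was not called. This demethylase of H3K9 and H3K36 was 25.6, 55.6 and 115 in sham controls and 41.9, 91.0 and 120 in stroke mice, and its log2 fold change was 0.63 (-0.15 to 1.41). The sham controls were spread over the whole range, and only stroke mouse 1 was above all of them. Without stroke mouse 3 the log2 fold change was 0.83 and without sham control 6 it was 0.85, both at an unadjusted p under 0.05. In the other direction, it was 0.34 without sham controls 1 and 2, 0.45 with the epithelial covariate and as low as 0.42 with 1 mouse left out, and none of these was called.

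The demethylases of H3K27, the polycomb mark, were Kdm6a on the X chromosome and the inducible Kdm6b. Kdm6a was 33.2, 42.6 and 49.7 in sham controls and 36.6, 41.5 and 51.9 in stroke mice (log2 fold change -0.025, -0.29 to 0.24). Kdm6b was 21.8, 25.6 and 31.2 and 9.85, 22.7 and 25.6, the most negative log2 fold change of the 87 members at -0.37 (-0.83 to 0.082). The value of 9.85 belongs to stroke mouse 5, far below the other 5 stroke mice, which lay in or just under the sham range. Without stroke mouse 5 the log2 fold change of Kdm6b was -0.17. Kdm6a exceeded Kdm6b in all 12 mice, by 1.35 to 2.15 times in sham controls, 1.43 to 2.09 times in the other stroke mice and 5.28 times in stroke mouse 5.

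Methyltransferases had no called gene in the main fit. The H3K4 methyltransferases of enhancers and promoters, Kmt2a to Kmt2d, all had positive log2 fold changes, of 0.25 for Kmt2a (-0.12 to 0.63), 0.12 for Kmt2b, 0.14 for Kmt2c and 0.25 for Kmt2d (-0.14 to 0.63). Kmt2d, the enhancer enzyme named above for lymphoma, was the highest Kmt gene at 94.9, 170 and 190 in sham controls and 151, 175 and 225 in stroke mice. Kmt2a was 80.2, 130 and 165 and 124, 135 and 167. For both, sham control 1 was the lowest mouse, and the medians of the groups lay much closer together than the lowest values did. Without sham controls 1 and 2, Kmt2a to Kmt2d stayed positive but the median of their 4 log2 fold changes went from 0.19 to 0.024. Kmt2d exceeded Kmt2c in all 12 mice, by 1.37 to 2.72 times in sham controls and 1.75 to 2.89 times in stroke mice.

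The H4K20 methyltransferases Kmt5b and Kmt5c had log2 fold changes of opposite sign. Kmt5b was 81.1, 86.99 and 99.1 in sham controls and 74.8, 80.5 and 92.7 in stroke mice (log2 fold change -0.098, -0.32 to 0.12), and Kmt5c was 35.6, 43.3 and 57.9 and 42.4, 48.3 and 71.9 (0.19, -0.15 to 0.53). The highest Kmt5c value came from stroke mouse 6, which stood apart from the other stroke mice.

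Among Setd genes, Setd2, the enzyme of H3K36 trimethylation, was highest at 100, 125 and 147 in sham controls and 112, 126 and 147 in stroke mice (log2 fold change 0.037, -0.21 to 0.29). Setd3, an actin histidine methyltransferase, had the most negative value of the family, -0.041 (-0.31 to 0.23). Setd4, the lowest Setd gene, was 9.88, 16.1 and 23.3 and 14.3, 19.9 and 26.6, with a log2 fold change of 0.36 (-0.096 to 0.82) that was 0.094 without sham controls 1 and 2. Setd7, an H3K4 monomethyltransferase that also modifies many other proteins, was next after the 8 called genes in order of p and is named after its values were seen. It was 16.4, 21.7 and 24.8 in sham controls and 21.8, 26.3 and 30.5 in stroke mice (0.28), at p = 0.052 in limma and p = 0.037 in the exact permutation test, with overlapping groups. Setd7 was called in 7 of 26 alternatives. These were no filter, the filter at 5, quality weights, an intensity trend, and leaving out sham control 3, stroke mouse 1 or stroke mouse 3.

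Of the SWI/SNF genes, the ATPase Smarca2 (chr19:26605050-26778322), also called BRM, was called higher. It was 88.1, 101 and 137 in sham controls and 117, 131 and 153 in stroke mice, with means of 106 ± 18.9 and 134 ± 15.3 (SD, n = 6 each). The log2 fold change was 0.35 ± 0.13 (SE), at p = 0.020 in limma, p = 0.024 in the exact permutation test and adjusted p = 0.769. All stroke mice were above the sham median, but only stroke mice 5 and 6 were above sham control 6, the highest control. Without sham controls 1 and 2, among the lowest for Smarca2, the log2 fold change was 0.24, with the epithelial covariate it was 0.25, and neither was called. The call was also lost with equal totals (0.48) and with quantile normalization (0.37), where the log2 fold change did not fall.

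The alternative ATPase Smarca4, or BRG1, had a log2 fold change of 0.25 (-0.022 to 0.53), so that the intervals of both paralogs overlap widely. Smarca4 was 82.8, 95.5 and 115 in sham controls and 95.7, 113 and 140 in stroke mice. The ratio of Smarca2 to Smarca4 was above 1 in 9 of 12 mice, at 0.801 to 1.65 in sham controls and 0.913 to 1.36 in stroke mice, and did not separate the groups.

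The non-catalytic SWI/SNF subunits with the Smarc name were not called in limma. Smarce1, the HMG-box subunit, was highest at 111, 117 and 133 in sham controls and 121, 130 and 241 in stroke mice (0.27, -0.078 to 0.61), at p = 0.12 in limma and p = 0.037 in the exact permutation test, and the value of 241 came from stroke mouse 5 alone. Without this mouse the log2 fold change of Smarce1 was 0.12. The core scaffold pair Smarcc1 and Smarcc2 was 53.5 to 81.0 and 67.1 to 86.7 for Smarcc1 (0.15, -0.11 to 0.40) and 101 to 112 and 107 to 131 for Smarcc2 (0.078, -0.13 to 0.28). Smarcc2 exceeded Smarcc1 in all 12 mice. Of the mutually exclusive Smarcd subunits, Smarcd2, a subunit needed in granulocyte development, was 60.8 to 90.6 and 57.4 to 84.3, above Smarcd1 at 26.6 to 38.5 and 27.8 to 47.7, and Smarcd3 was at most 4.88 in any mouse.

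The SNF2-type enzymes Smarcad1 and Smarcal1 were not called either. Smarcad1, which acts at heterochromatin and DNA breaks, was 44.7 to 65.8 in sham controls and 43.1 to 53.4 in stroke mice (-0.11, -0.36 to 0.15). Smarcal1, an annealing helicase of stalled replication forks, was the lowest tested Smarc gene at 22.8 to 32.2 and 25.6 to 30.0 (0.085, -0.14 to 0.31).

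ARID proteins fall into SWI/SNF subunits and other DNA-binding proteins. Arid1a and Arid1b are alternative subunits of the canonical BAF complex, and neither was called. Arid1a was 123, 131 and 166 in sham controls and 102.1, 140 and 159 in stroke mice (-0.022, -0.31 to 0.26), and Arid1b was 83.9, 94.3 and 118 and 86.0, 97.8 and 117 (0.056, -0.19 to 0.30). Arid1a exceeded Arid1b in 11 of 12 mice, with stroke mouse 5 as the exception at a ratio of 0.964.

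The called Arid genes were Arid5a and Arid4b. Arid5a (chr1:36307733-36324029), known for stabilising cytokine mRNAs, was 58.0, 67.6 and 95.99 in sham controls and 67.1, 93.5 and 127 in stroke mice, a log2 fold change of 0.37 ± 0.16 (SE) at p = 0.039 in limma, p = 0.045 in the exact permutation test and adjusted p = 0.791. Stroke mice 3, 5 and 6 were above all sham controls and the others mixed with them. Its highest control was sham control 1, and without sham controls 1 and 2 the log2 fold change was 0.50 and the gene was still called. The call was lost when any of sham controls 3, 4, 5 and 6 or stroke mice 3, 5 and 6 was left out. With 1 mouse left out the log2 fold change stayed between 0.28 and 0.46, and without both sham control 6 and stroke mouse 5 it was 0.23. Its paralog Arid5b, an adaptor of a demethylase, was the lowest tested Arid gene at 18.8 to 26.6 and 20.1 to 25.9 (-0.0082, -0.25 to 0.23).

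Arid4b (chr13:14063232-14199603), a partner of the SIN3 deacetylase complex, was 81.7, 89.6 and 101 in sham controls and 98.3, 103 and 141 in stroke mice. The log2 fold change was 0.26 ± 0.11 (SE), at p = 0.040 in limma, p = 0.0087 in the exact permutation test and adjusted p = 0.791. In 5 of 6 stroke mice Arid4b was above every sham control, and stroke mouse 5 stood apart from the rest. The call was lost without sham control 1, 2, 4 or 5 or stroke mouse 1, 4 or 5 (log2 fold change 0.19 without stroke mouse 5). It was also lost with quality weights (0.18), with the epithelial covariate (0.21), without sham controls 1 and 2 (0.23) and under the 3 other scalings, where the log2 fold change was 0.38 with equal totals and 0.28 with quantile normalization. Exons of Ggps1 overlap it on the opposite strand.

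The CHD family was the most uniform in direction, with positive log2 fold changes in 9 of 9 tested genes and a median of 0.16. All 9 were also positive under each of the 3 other scalings, and 6 were with quality weights. With equal totals the median of all genes was 0.13 and 84 of 87 members were positive, so 9 of 9 there lay near the share of all members. Without sham controls 1 and 2, 8 were positive (all but Chd3), with a median of 0.086 against 0.050 for all genes. With 1 mouse left out, 7 to 9 were positive, with 7 without sham control 6 (Chd1 and Chd4 were negative), and the median fell to 0.086 without stroke mouse 5. Sham controls 1 and 2 had the lowest Chd deviations of the 12 mice, -0.27 and -0.19, and stroke mouse 5 the highest, 0.23. In the NuRD complex, which joins remodelling to deacetylation, Chd4 was 169 to 257 in sham controls and 197 to 267 in stroke mice (0.046, -0.24 to 0.33). Its alternative Chd3 was 84.1 to 126 and 96.8 to 134 (0.061, -0.22 to 0.34). Chd4 exceeded Chd3 in all 12 mice, by 1.46 to 2.87 times. Chd1, which follows RNA polymerase, had the smallest difference of the family (0.042, -0.22 to 0.31), and Chd1l, a PARP-activated remodeler, was the lowest tested Chd gene at 21.5 to 33.4 and 24.1 to 34.0.

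The called CHD genes belong to the CHD6 to CHD9 subfamily, whose members work at promoters and enhancers. Chd9 (chr8:90828352-91054516) was 613, 838 and 1586 in sham controls and 1032, 1205 and 2225 in stroke mice. The log2 fold change was 0.53 ± 0.23 (SE), at p = 0.039 in limma but p = 0.061 in the exact permutation test, with adjusted p = 0.791. All stroke mice were above 5 of the 6 sham controls, but sham control 6 was above 5 of the 6 stroke mice. The highest value was from stroke mouse 5, and these extremes belong to the mice with the lowest quality weights. Without both, an alternative added after seeing the data, Chd9 remained among the 11 members called (12.6%, with 6.49% of all genes). With the epithelial covariate its log2 fold change was 0.29 and not called, and the call was also lost with an intensity trend, which leaves the log2 fold change as it was, and under the 3 other scalings, where it was larger with equal totals (0.66) and quantile normalization (0.65). Without any of sham controls 1, 2, 3 and 5 or stroke mice 2, 3 and 5 it was not called (log2 fold change 0.37 without stroke mouse 5), nor without sham controls 1 and 2 together (0.36).

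Chd9 was also the most abundant member by far, and it made up 39.4 to 60.8% of the summed Chd level. It was 4.90 to 12.1 times the level of its relative Chd8 in single mice. GENCODE M21 lists 15 transcripts for Chd9, 4 of them with a retained intron, over 23148 exon bases, and which transcripts carry the level was not analysed here. Exons of Gm45641 overlap it on the opposite strand.

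Chd7 (chr4:8690406-8867659), the gene of CHARGE syndrome in humans, was 56.7, 71.5 and 82.4 in sham controls and 76.8, 82.1 and 89.3 in stroke mice. The log2 fold change was 0.23 ± 0.11 (SE), at p = 0.049 in limma, p = 0.013 in the exact permutation test and adjusted p = 0.791. All stroke mice were above 5 of 6 sham controls and 3 were above sham control 3, the highest. This p lay at the threshold, and Chd7 stayed called only without sham control 3 or 6 among the 12 fits that left out 1 mouse. Without sham controls 1 and 2 the log2 fold change was 0.14 and not called, and the call was also lost at a pseudocount of 0.1, with quality weights (0.14), with the epithelial covariate (0.18) and without both sham control 6 and stroke mouse 5. It was lost under the 3 other scalings too, where the log2 fold change was 0.36 with equal totals and 0.24 with quantile normalization.

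**Figure D4:**
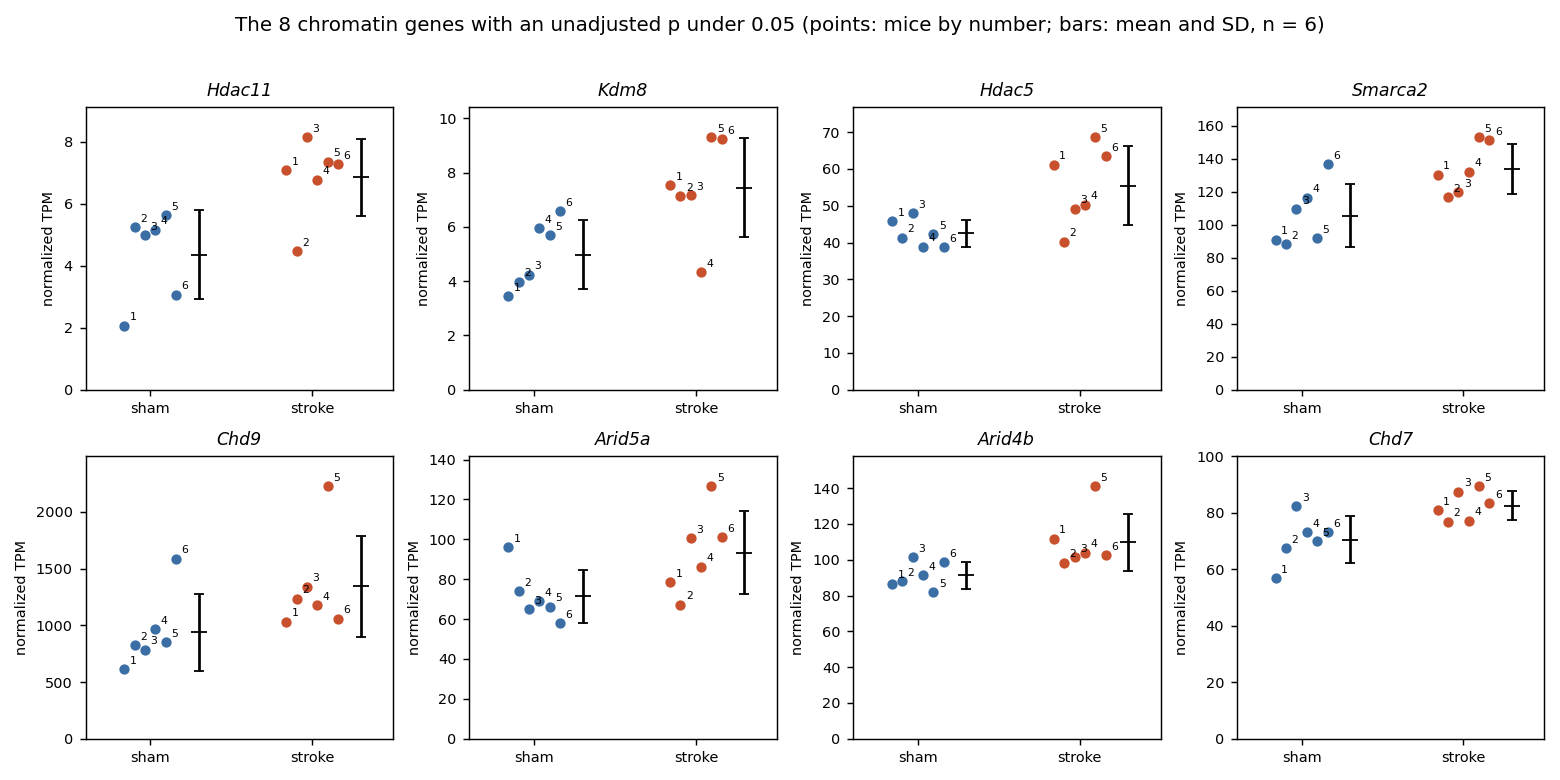
Normalized TPM of the 8 genes with an unadjusted p under 0.05, with 1 point for each mouse labelled by its number, and the mean and SD of each group (n = 6) as a bar beside it. Stroke means are higher in all 8 genes, and in every panel at least 1 stroke mouse lies within the sham range.

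Bromodomain genes had no call. The BET proteins, which hold the transcription elongation machinery at acetylated chromatin, include Brd2 and Brd3, and Brd2 was above Brd3 in all 12 mice. Brd2 was 236, 263 and 317 in sham controls and 231, 282 and 314 in stroke mice (0.017, -0.23 to 0.27), and its exons overlap H2-DMa on the opposite strand. Brd3 was 33.5, 42.7 and 51.4 and 39.2, 50.9 and 63.9 (0.26, -0.038 to 0.56).

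Brd9, a subunit of the non-canonical SWI/SNF complex, had the largest value of the family, 0.39 (-0.048 to 0.82). It was 39.3, 51.2 and 79.9 in sham controls and 56.9, 64.9 and 108 in stroke mice, and 2 stroke mice were above all controls. Its log2 fold change was 0.23 with the epithelial covariate and 0.25 without sham controls 1 and 2, neither called. Without sham control 6 it was 0.50 and called, and it was also called with quality weights and without both sham control 6 and stroke mouse 5. Brd8dc, grouped by name only, was just above the filter at 1.07 to 2.54 and 1.10 to 1.65 (-0.11, -0.43 to 0.22).

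Compared by family, the medians of the log2 fold change were 0.16 for Chd, 0.13 for Kmt, 0.13 for Setd, 0.11 for Brd, 0.082 for Hdac, 0.078 for Smarc, 0.056 for Arid, 0.029 for Sirt and -0.0054 for Kdm. Calls were 2 of 11 Hdac, 2 of 9 Arid, 2 of 9 Chd, 1 of 16 Kdm and 1 of 11 Smarc genes, where 4.42% of all genes tested were called higher, so that the single Kdm call lay near that share. The Kmt, Setd, Sirt and Brd families had 0 calls at an unadjusted or adjusted p in limma. No test between families was made.

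Other chromatin genes outside these names were called at a share near that of all genes. From 10 lists with 179 genes of polycomb, acetyltransferase, methyltransferase, COMPASS, demethylase, SWI/SNF, corepressor, ISWI and INO80, DNA methylation and bromodomain partner proteins, 167 were tested. In limma 8 (4.79%) were higher and 0 lower at an unadjusted p under 0.05, none after adjustment, and the median log2 fold change was 0.049 with 60.5% positive. The called genes include Asxl1 (0.45) and Bap1 (0.24), which form the deubiquitinase of H2A, the arginine methyltransferase Carm1 (0.32), the Kmt2c and Kmt2d partners Paxip1 (0.34) and Pagr1a (1.04), the demethylase-like Jmjd1c (0.22) and the remodeler subunit Baz2a (0.30). Asxl1 was 26.5, 30.8 and 39.9 normalized TPM in sham controls and 35.2, 43.9 and 50.4 in stroke mice, and the groups overlapped. Of 13 tested acetyltransferases, the enzymes opposite to the Hdac genes, 5 were positive with a median of -0.055, and of 10 tested DNA methylation genes 9 were positive with a median of 0.11 and no call.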

How the data were processed

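Bulk RNA-seq of PP B cells from 6 sham controls and 6 stroke mice was used, grouped by the sample labels. According to the methods and processing notes, the authors trimmed reads with Trimmomatic 0.39 at a Phred score of 20, quantified transcripts of Ensembl release 102 (GRCm38) with kallisto 0.48.0, removed transcripts below 1 TPM, and tested with sleuth 0.30.0 in R 4.1.2. The deposited values are a signal per gene labelled as normalized TPM. TPM was assumed when the tests were designed, but the column sums differ, so the values were treated as an expression signal on the log scale. Read counts are unknown, so depth and counting error cannot be given.

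log2(value + 0.5) of the 12590 genes that reached 1 in each of the 12 mice was tested with limma 3.58.1 in R 4.3.3, with Benjamini-Hochberg adjustment over all genes and no covariate. Fold changes on this scale understate changes of low genes. P-values are two-sided, single genes were also compared by an exact permutation test of the difference in mean log2 values, and a gene was called at an unadjusted p under 0.05. The limma script was tested on simulated data. Other pseudocounts, filters, scalings, a replicate block, quality weights, an intensity trend, an epithelial covariate and leaving out mice were tried.

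The genes, the lists of other chromatin genes and of markers, and the tests were chosen with earlier results of these data known. Named genes were those called, the highest and lowest level and the largest rise and fall of each family, fixed paralog groups and members under the filter. Others are marked, except Kdm2b, Chd8 and Arid4a, which are named beside another result. A few genes that meet these criteria are left out of the text. Gene positions are from GENCODE M21 on GRCm38, promoters from RefSeq on GRCm38.p6. Of the tested members, 36 have exons that overlap another gene, and the strandedness of the libraries is not given in the sources used here.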

Additional observations from a re-analysis of the deposited data

Results flagged for a closer look

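Within each group of 6 mice, the named genes were searched for a single mouse whose gap to its nearest neighbour, as a share of the range of the group, passed Dixon's 95% critical value. Of 108 groups 14 met this, where chance alone would give about 1 in 20, or 5.4. Stroke mouse 5 was the mouse in 6 of the 14. It was highest for Smarce1 (241 normalized TPM, gap share 0.762), Chd9 (2225, 0.661) and Arid4b (141, 0.644), and lowest for Kdm6b (9.85, 0.755), Sirt7 (44.2, 0.673) and Sirt2 (29.7, 0.667). This mouse also had the highest mitochondrial share of the total, 7.49% against 2.13 to 5.11% in the others, and the lowest B cell marker sum, and the part of either in these values was not tested.

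Stroke mouse 6 was highest for Kmt5c (71.9, gap share 0.697) and Smarcc2 (131, 0.629). Sham control 1 was highest of its group for Smarcal1 (32.2, 0.677) and Arid1b (118, 0.635). Among stroke mice, mouse 2 was lowest for Hdac11 (4.46, 0.691), mouse 4 for Kdm8 (4.32, 0.646), mouse 3 for Kdm4b (41.9, 0.646) and mouse 1 for Hdac9 (24.9, 0.64). For Hdac11 and Kdm8 the outlying stroke mouse was the one inside the sham range. Smarce1 and Kdm6b had the widest gaps, and neither was called.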

How the results depend on the processing

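The 8 called genes kept their sign in all 26 alternatives that tested them, and of 46 named genes not called 25 changed sign in at least 1. The number of members called higher fell from 8 (4.42% of all genes) to 3 with equal totals (2.76%), 5 with median of ratios scaling (3.23%), 4 with quantile normalization (3.0%), 3 without sham controls 1 and 2 (3.56%) and 4 with the epithelial covariate (3.95%). It was 6 with quality weights (6.88%), and ran from 5 to 13 when 1 mouse was left out (3.15 to 7.44% of all genes), with 13 without sham control 6. Members called lower were 0, except 1 with quality weights (Kdm6b, 1.15% of members with 5.58% of all genes) and 0 to 1 when 1 mouse was left out (Hdac2 without sham control 6). The cause was not tested. The smallest adjusted p of any member over all alternatives was 0.226. Equal totals moved the median log2 fold change of all genes to 0.13 (from 0.0069) and that of members to 0.20, with 84 of 87 positive. The replicate block gave 8 higher members and 0 lower, where 6.12% of all genes were higher and 3.21% lower. Of the main 8 it kept 5, without Arid4b, Arid5a and Chd7, and added Arid4a, Brd9 and Setd4. The numbers in the labels were not taken to pair the mice, since 4 of 6 pairs and not all correlated over 0.1. Same-numbered deviations correlated at 0.013 to 0.49 (mean 0.22, against -0.041 for other numbers), and 2 sham controls and 2 stroke mice correlated best with their own number. Unknown depth limits the lowest genes, such as Hdac11 and Kdm8.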
